A study of Mus musculus with 18 samples.

Results

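The MyoD family is a set of 4 muscle transcription factors, Myf5, Myod1 (MyoD), Myog (myogenin) and Myf6 (MRF4), and Myf5 is the member followed most closely here. The 4 genes were taken by name, each name matched to 1 Ensembl identifier through the deposited tables, out of 35275 genes listed. Their transcripts were measured by RNA-seq of polyadenylated RNA in C2C12 cells, a mouse myoblast line that can be made to differentiate in culture. The 18 libraries comprised control cells, labelled wild-type, cells overexpressing the spliced form of MUNC (MUNC spliced) and cells overexpressing its genomic form (MUNC genomic). MUNC, a long noncoding RNA, is made from a region just upstream of the Myod1 gene. Each kind of cell was taken in growth medium with 20% fetal bovine serum at about 80% confluency (GM), or after 3 days of differentiation in 2% horse serum (DM3), with 3 libraries for each of the 6 groups, called biological replicates in the series' design. The C2C12 stock shared by all groups is labelled PAX7 negative. Whether an overexpressing line is 1 clone or a pool is not given in the sources used here. The level of MUNC was not analysed here, so overexpression was not checked.

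Family members are basic helix-loop-helix proteins that pair with E proteins and bind E-box sequences near muscle genes. Myf5 and Myod1 act mainly in commitment to the muscle lineage and in myoblasts, Myog in the turn to differentiation, and Myf6 both early in the embryo and late in muscle fibres. Proliferating C2C12 myoblasts usually express Myf5 and Myod1, and Myog is usually induced when serum is withdrawn. Myf5 and Myf6 are neighbours in the genome and share a regulatory region.

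On mm10 (GRCm38), with gene models of GENCODE M21, Myf5 (ENSMUSG00000000435) lies on the minus strand at chr10:107482908-107486134. Myf6 (ENSMUSG00000035923) lies on the same strand at chr10:107492853-107494737, 6718 bp upstream of Myf5. Myod1 (ENSMUSG00000009471) is at chr7:46376474-46379099 and Myog (ENSMUSG00000026459) at chr1:134289989-134292548, both on the plus strand. Each gene has 3 exons and overlaps 0 other genes, with exon lengths of 2083 bp for Myf5, 1263 bp for Myf6, 1861 bp for Myod1 and 1495 bp for Myog.

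Promoter sequence was at hand for 2 of the 4 members, Myog and Myf5, and is shown because the levels of Myog spanned the widest range of FPM in the family and Myf5 went the other way in MUNC genomic cells. Each run below is the 250 bases before the RefSeq start of the gene on GRCm38.p6, 5′ to 3′ on the gene's strand, at chr1:134289754-134290003 (plus) for Myog and chr10:107486135-107486384 (minus) for Myf5. The GENCODE start of Myog lies inside its window. Capitals mark E-boxes (CANNTG) and TATA boxes (TATAAA), searched on both strands.
Myog: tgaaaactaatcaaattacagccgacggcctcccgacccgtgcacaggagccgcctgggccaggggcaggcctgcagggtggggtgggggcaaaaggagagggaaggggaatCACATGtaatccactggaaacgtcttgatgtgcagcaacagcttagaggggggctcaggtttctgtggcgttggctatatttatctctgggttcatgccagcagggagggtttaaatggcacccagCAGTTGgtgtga
Myf5: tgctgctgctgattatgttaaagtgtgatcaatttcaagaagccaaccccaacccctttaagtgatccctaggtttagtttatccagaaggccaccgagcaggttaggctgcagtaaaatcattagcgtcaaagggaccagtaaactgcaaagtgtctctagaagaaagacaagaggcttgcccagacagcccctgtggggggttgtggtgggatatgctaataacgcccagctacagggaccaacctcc
The Myog window held 2 E-boxes, CACATG from 138 to 133 bp and CAGTTG from 12 to 7 bp before the start. It also held 1 match to the MEF2 box, the A/T-rich site of MEF2 factors, from 64 to 55 bp before the start, which overlaps neither E-box. The Myf5 window held 0 E-boxes, 0 TATA boxes and 0 MEF2 boxes, which says only that these letters are not in this window. Among 32851 such windows, 66.2% held at least 1 E-box, 31.8% at least 2, 12.4% a TATA box and 7.03% a MEF2 box.

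Values below are in FPM, reads per gene scaled for library size, at a depth of 38416702 to 68788327 reads per library. For a gene without reads the count of 0 allows up to 3 reads, 0.0429 to 0.0757 FPM depending on the library, and this limit covers counting error only. Differences were tested with limma on log2(FPM + 1), over the 13869 genes with at least 0.5 FPM in at least 3 libraries. Calls were made where the Benjamini-Hochberg adjusted p fell under 0.05, and all limma differences are given on that log2 scale, which understates the change of low genes. Of the 4 members, Myf5, Myod1 and Myog passed the filter and Myf6 did not. Myod1 and Myog passed only through libraries of the MUNC lines, so their calls against control add no support beyond the levels themselves. All comparisons of a MUNC line with control in a given medium share the same 3 control libraries. The RNA is from bulk cultures, in which fewer cells of a type and less RNA per cell cannot be told apart.

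Myf5 was the most abundant member per length in 17 of the 18 libraries. Its level was lower in MUNC genomic cells than in control cells in both media, and it was higher in DM3 than in GM in control and in MUNC spliced cells. In GM, Myf5 stood at 67.8, 81.5 and 66.0 FPM in control replicates 1 to 3, at 53.2, 63.8 and 59.0 FPM in MUNC spliced and at 24.3, 30.1 and 25.8 FPM in MUNC genomic cells. In DM3 it stood at 95.0, 109.9 and 105 FPM in control, at 125, 103 and 95.5 FPM in MUNC spliced and at 34.4, 33.8 and 20.0 FPM in MUNC genomic cells. Every MUNC genomic library lay below every library of the other 4 groups. In GM the MUNC spliced libraries lay just below the control libraries, and in DM3 these groups overlapped.

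**Figure D1:**
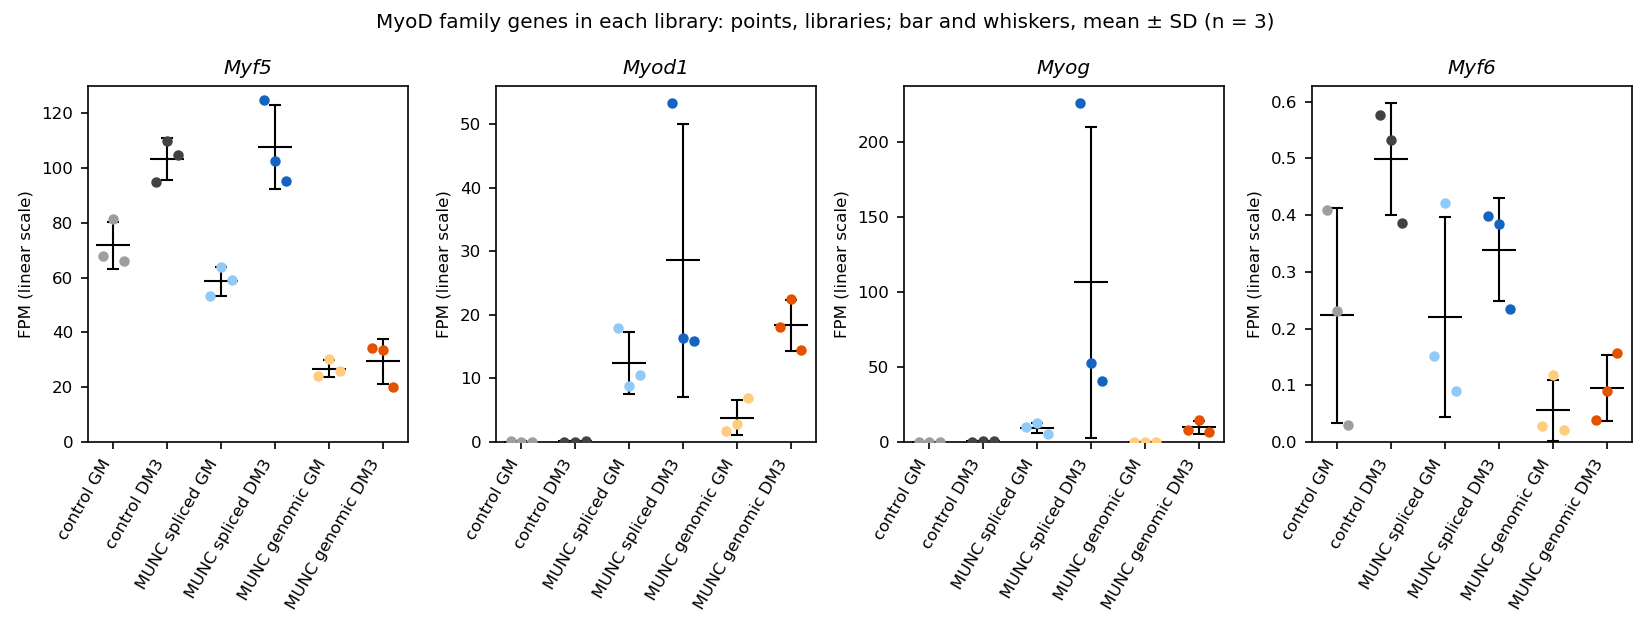
FPM of Myf5, Myod1, Myog and Myf6 (1 panel each) on linear axes, with 1 point for each of the 18 libraries in 6 groups and bars for the mean ± SD (n = 3). Myf5 is between 20.0 and 125 FPM everywhere and lowest in MUNC genomic cells, while Myod1 is at most 0.221 FPM in control cells and at least 1.66 FPM in the MUNC lines.

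From GM to DM3, Myf5 averaged 71.8 ± 8.50 and then 103 ± 7.59 FPM in control cells (SD, n = 3 each). The log2 difference was 0.52 (SE 0.17, limma adjusted p 0.0151), with 3 of 3 DM3 libraries above all GM libraries. This call did not survive the loss of control GM replicate 3 (0.47, limma adjusted p 0.0548) or of control DM3 replicate 2 (0.48, limma adjusted p 0.0540). In MUNC spliced cells Myf5 rose from 58.7 ± 5.33 to 108 ± 15.3 FPM (SD, n = 3 each), by 0.86 (SE 0.17, limma adjusted p 0.00115), again in 3 of 3 libraries. In MUNC genomic cells the means were 26.7 ± 3.04 and 29.4 ± 8.17 FPM (SD, n = 3 each), a difference of 0.10 that was not called (limma adjusted p 0.668). DM3 replicates 1 and 2 lay above the GM range and replicate 3 lay below it.

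The response of Myf5 to medium was not shown to differ between the lines. The interaction, the DM3 minus GM difference of a line less that of control, was 0.34 for MUNC spliced (SE 0.24, limma adjusted p 0.365). For MUNC genomic it was -0.43 (SE 0.24, limma adjusted p 0.324), and without MUNC genomic DM3 replicate 3 it was -0.18 (limma adjusted p 0.634).

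Against control, Myf5 fell in MUNC genomic cells by 1.39 in GM (SE 0.17, limma adjusted p 1.21e-05) and by 1.82 in DM3 (SE 0.17, limma adjusted p 3.00e-07), in 3 of 3 libraries each. The ratios of the group means were 0.373 in GM and 0.284 in DM3. In MUNC spliced cells the difference from control was -0.28 in GM (SE 0.17, limma adjusted p 0.210) and 0.05 in DM3 (SE 0.17, limma adjusted p 0.832), neither of them called. Directly compared, MUNC spliced cells held more Myf5 than MUNC genomic cells by 1.11 in GM (limma adjusted p 9.56e-05) and by 1.87 in DM3 (limma adjusted p 1.83e-07), a ratio of means of 2.19 and 3.66. In the authors' deposited table the log2 differences of MUNC genomic cells from control were -1.38 in GM and -1.80 in DM3, with adjusted p-values of 1.15e-13 and 1.61e-18.

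By group mean the order of Myf5 was MUNC spliced DM3, control DM3, control GM, MUNC spliced GM, MUNC genomic DM3 and MUNC genomic GM. Neighbours in this order that were not called apart were the 2 highest groups, control GM with MUNC spliced GM, and the 2 MUNC genomic groups. The step from MUNC spliced GM to MUNC genomic DM3 crosses line and medium and was not tested.

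Of the 6 myoblast markers Des, Cdh15, Ncam1, Vcam1 and Itga7 were read in all 18 libraries, and Pax7 gave 34 reads in all. In DM3 the 6 summed per library to 1671 to 1814 FPM in MUNC genomic cells, 676 to 1027 in control and 771 to 1127 in MUNC spliced cells. They did not move together. In GM, group means in MUNC genomic against control cells were 476 against 24.2 FPM for Des and 69.8 against 55.5 for Ncam1. Means were lower for Cdh15 (22.9 against 46.3), Vcam1 (68.2 against 109) and Itga7 (136 against 174). In DM3 the higher sum came mostly from Des, at 898 against 77.5 FPM in control. Means there were 99.9 against 76.4 FPM for Cdh15, 94.7 against 59.0 for Ncam1 and 528 against 481 for Itga7. Vcam1 was lower in DM3 as well (141 against 199). Markers of other cell types also moved with the groups in part, and the part of either set in the Myf5 differences was not tested. The 5 mesenchymal markers, mostly Col1a1, summed per library to 787 to 2178 FPM in MUNC genomic GM and 1910 to 2898 in control GM, and to 2875 to 5910 in MUNC spliced GM. In DM3 they summed to 1437 to 1750 FPM in MUNC genomic cells, 1943 to 2449 in control and 3879 to 4374 in MUNC spliced cells, with 4 reads of Thy1 in all libraries. The lower sum in MUNC genomic cells came from Col1a1 (1356 against 2215 FPM in control GM and 1388 against 1928 in DM3, group means). Dcn was at 6.19 against 17.4 FPM in GM and at 181 against 186 in DM3. Pdgfra was higher in MUNC genomic than in control cells (24.2 against 7.24 FPM in GM, 26.1 against 10.3 in DM3), as was Lum in DM3 (8.71 against 1.34). The 3 endothelial markers summed to 7.10 to 7.36 FPM in MUNC genomic GM and 3.89 to 4.99 in MUNC genomic DM3, nearly all Cdh5, and to at most 0.602 FPM in the other groups, with 4 reads of Kdr in all. The 3 macrophage markers measured summed to at most 5.53 FPM, and the 3 adipocyte markers, with 3 reads of Adipoq in all, to at most 12.8 FPM.

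Myod1, the factor encoded next to MUNC, was almost absent from control cells and present in every MUNC library. Control libraries held 5, 0 and 0 reads of Myod1 in GM and 4, 0 and 12 in DM3, against 4607 reads of Myf5 in the second GM library. Per kb of exon, Myod1 reached 9.64, 4.75 and 5.63 FPM in MUNC spliced GM, 28.7, 8.80 and 8.58 in MUNC spliced DM3, 0.892, 1.54 and 3.76 in MUNC genomic GM and 9.71, 12.1 and 7.81 in MUNC genomic DM3. No MUNC library overlapped a control library. MUNC spliced DM3 replicate 1 stood above its other 2 replicates (28.7 against 8.80 and 8.58). Between the lines, Myod1 was higher in MUNC spliced than in MUNC genomic cells in GM (1.57, SE 0.41, limma adjusted p 0.00685), a call that DESeq2 did not make (1.65, DESeq2 adjusted p 0.111). In DM3 it was not called (0.40, limma adjusted p 0.451), and without MUNC spliced DM3 replicate 1 the difference was -0.15. Myf5 was called apart between the lines in both media, in the same direction as Myod1 in GM.

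Myog, which drives the turn to terminal differentiation, was scarce in control cells in both media. Control libraries held 4, 1 and 0 reads of Myog in GM and 10, 22 and 22 in DM3, where C2C12 myoblasts usually induce it. All 3 DM3 libraries lay above the GM libraries. This difference in control cells was not called by limma (0.38, adjusted p 0.491) and was called by edgeR (3.49, adjusted p 0.0326), by DESeq2 (3.63, adjusted p 0.000792) and in the authors' deposited table (3.58, adjusted p 0.00185). MUNC genomic GM held 10, 6 and 0 reads, so in growth medium these cells carried Myod1 transcripts with little Myog. Per kb of exon, Myog reached 6.50, 8.44 and 3.67 FPM in MUNC spliced GM, 151, 35.2 and 27.4 in MUNC spliced DM3, and 5.28, 9.84 and 4.35 in MUNC genomic DM3. These 3 groups lay above every control library, with MUNC spliced DM3 replicate 1 far above its other replicates. Against control in DM3, the log2 difference of Myog was 5.90 in MUNC spliced cells and 2.92 in MUNC genomic cells. Without MUNC spliced DM3 replicate 1 the first of these was 5.15. Myog passed the filter only through the MUNC lines, so no test against control is given here.

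Myf6, the neighbour of Myf5 that is best known from mature fibres, had at most 30 reads in any library. Per kilobase of exon, its mean level in control GM was 0.177 FPM, against 0.0153 for Myod1 and 0.0192 for Myog, and in control DM3 it was 0.395 FPM, against 0.0533 and 0.230. Read counts in replicates 1 to 3 were 24, 13 and 2 in control GM, 6, 23 and 5 in MUNC spliced GM, and 2, 7 and 1 in MUNC genomic GM. In DM3 they were 30, 27 and 21 in control, 21, 22 and 13 in MUNC spliced, and 2, 6 and 8 in MUNC genomic cells. The highest value in any library was 0.576 FPM, and only 2 libraries passed 0.5 FPM, so Myf6 was not tested with the other genes. In DM3 the MUNC genomic libraries lay below all libraries of the other 2 groups, as for Myf5, and in GM the groups overlapped. With no filter on low values, a setting that tests all genes with a read, the difference of MUNC genomic DM3 from control DM3 was -0.45 (limma adjusted p 0.00714). On the recovered reads with no filter the difference was -2.35 by DESeq2 (adjusted p 0.0138) and -2.32 by edgeR (adjusted p 0.0235), and it was -2.37 in the authors' deposited table (adjusted p 0.00168). Control DM3 against GM was called by limma with no filter (0.30, adjusted p 0.0460) and not by DESeq2 (1.18, adjusted p 0.205) or edgeR (1.15, adjusted p 0.221).

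**Figure D2:**
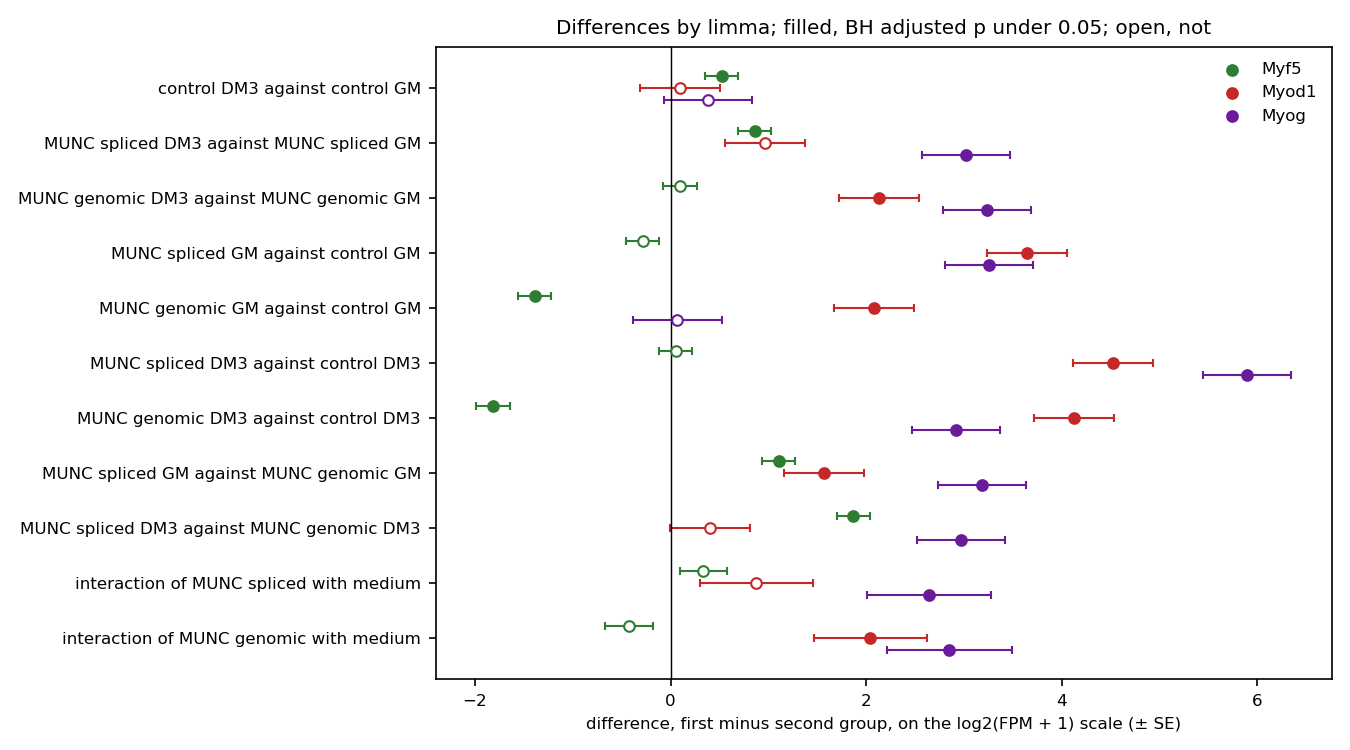
Log2(FPM + 1) differences with SE from limma for Myf5, Myod1 and Myog in 9 comparisons and 2 interactions, filled where the adjusted p was under 0.05. Myf5 lies below 0 in MUNC genomic cells against control (-1.39 and -1.82), where Myod1 lies above 0 (2.08 and 4.12).

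Set against all genes, calls were common. In control cells limma called Myf5 between DM3 and GM and did not call Myod1 or Myog, beside 58.2% of all tested genes called. Myf5 and Myog were called in MUNC spliced cells on differentiation, beside 35.6% of all genes, and Myod1 and Myog in MUNC genomic cells, beside 51.4%. Against control in GM, Myod1 and Myog were called for MUNC spliced (35.5% of all genes), and Myf5 and Myod1 for MUNC genomic cells (26.8%). In DM3, Myod1 and Myog were called for MUNC spliced (43.3%) and all 3 tested members for MUNC genomic cells (40.3%). Between the MUNC lines, 3 members were called in GM (35.8%) and Myf5 and Myog in DM3 (44.2%). The interaction was called by limma for Myog in MUNC spliced cells (14.4%) and for Myod1 and Myog in MUNC genomic cells (8.81%), and none of these by edgeR or DESeq2. Myod1 and Myog passed the filter only through the MUNC lines, so their calls against control, interactions included, add no support beyond the levels. A call alone thus sets no member apart. The libraries of 2 groups did not overlap for 62.4%, 44.6% and 62.8% of all genes between DM3 and GM in control, MUNC spliced and MUNC genomic cells. Against control this share was 43.6% and 37.9% in GM and 53.0% and 56.9% in DM3 for MUNC spliced and MUNC genomic cells, and between the MUNC lines it was 45.7% in GM and 57.2% in DM3.

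The balance of the family was taken per library as each member's share of the summed FPM per kb of exon. It is a description with no test. In control cells Myf5 made up nearly the whole of the family. Its share in replicates 1 to 3 was 98.7%, 99.5% and 99.9% in GM and 98.6%, 98.7% and 98.6% in DM3. In MUNC spliced cells it was 61.1%, 69.4% and 75.1% in GM and 25.0%, 52.7% and 55.9% in DM3. In MUNC genomic cells it was 92.0%, 89.5% and 76.7% in GM and 52.4%, 42.4% and 43.8% in DM3. Every MUNC library lay below every control library, and in both lines every DM3 library lay below every GM library.

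**Figure D3:**
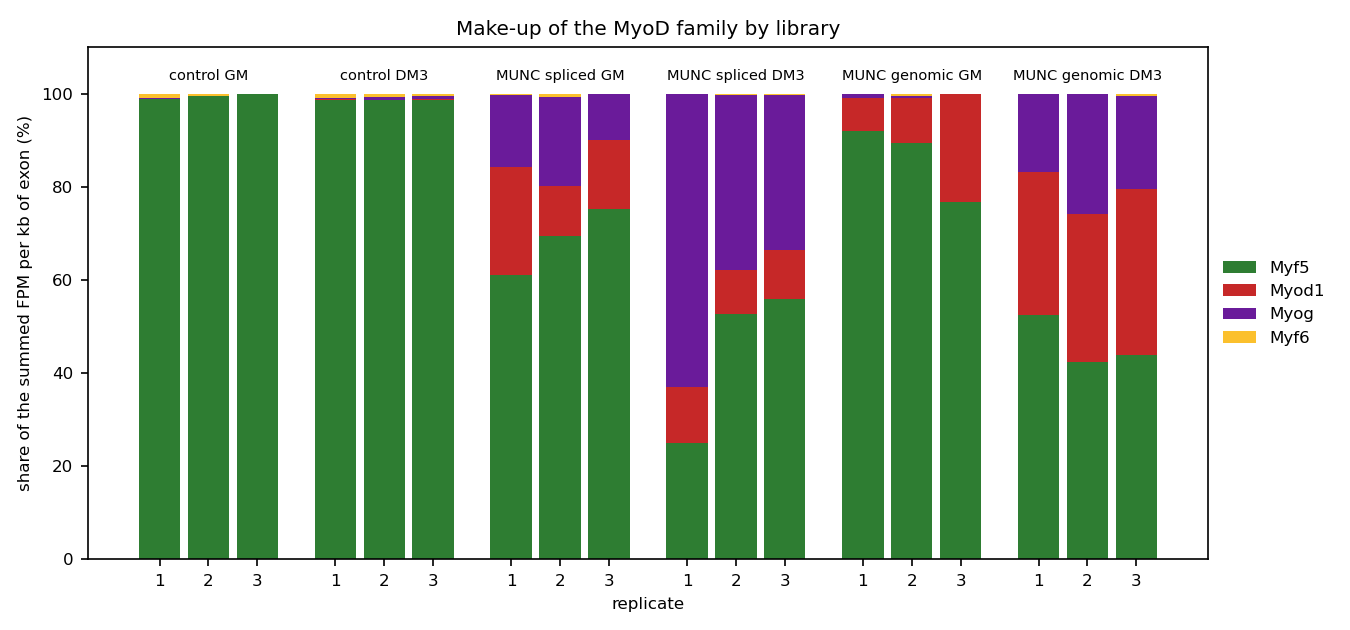
Stacked bars of the share (percent) of the summed family level, in FPM per kb of exon, that each of the 4 members held in each of the 18 libraries. Myf5 fills 98.6% or more of the control bars, and in DM3 Myog holds the larger remainder in MUNC spliced cells (44.7%) and Myod1 in MUNC genomic cells (32.7%).

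The mean share of Myf5 was 44.5 ± 17.0% in MUNC spliced DM3 and 46.2 ± 5.41% in MUNC genomic DM3 (SD, n = 3 each). MUNC spliced replicate 1 carried the first of these, and without it the mean share was 54.3%, with both other libraries above all MUNC genomic DM3 libraries. The summed family level was 138 ± 88.0 FPM per kb in the first and 30.5 ± 8.22 in the second, against 50.3 ± 3.69 in control DM3 (SD, n = 3 each). Without MUNC spliced DM3 replicate 1 (239.9) the first mean was 87.8 FPM per kb. Myod1 and Myog held 10.6% and 44.7% of the family in MUNC spliced DM3, and 32.7% and 20.8% in MUNC genomic DM3. In GM the sums were 34.7 ± 4.09 FPM per kb in control, 41.2 ± 3.27 in MUNC spliced and 15.0 ± 2.03 in MUNC genomic cells (SD, n = 3 each). The MUNC genomic sum in GM was thus the lowest of the 6 groups.

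Ratios of Myf5 to a single member did not all move from GM to DM3. Per kb, Myf5 exceeded Myod1 by a ratio of 2.65, 6.45 and 5.03 in MUNC spliced GM and 2.09, 5.60 and 5.34 in MUNC spliced DM3, ranges that overlapped. In MUNC genomic cells the ratio was 13.1, 9.38 and 3.30 in GM and 1.70, 1.34 and 1.23 in DM3, so all 3 DM3 libraries were below all 3 GM libraries. In the control libraries with Myod1 reads above the 3-read limit the ratio was 710 (GM), 1105 and 424 (DM3), and in the other control libraries it was at least 1279. Myf5 relative to Myog was 0.396, 1.40 and 1.67 in MUNC spliced DM3 and 3.13, 1.65 and 2.20 in MUNC genomic DM3, in each line below all of its GM libraries. The log2 ratio of Myf5 to Myf6 averaged 7.63 in GM and 7.62 in DM3 in MUNC spliced cells, and 7.88 and 7.52 in MUNC genomic cells, with overlap in both and with Myf6 counts under 3 reads set to 3. MUNC spliced DM3 replicate 1 was the only library in which Myog exceeded Myf5 per length.

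**Figure D4:**
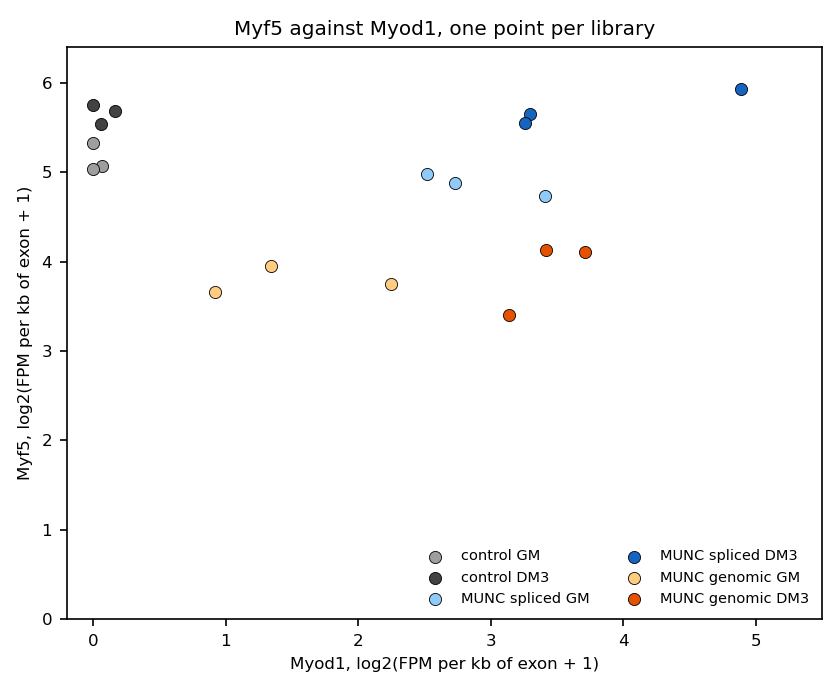
Myf5 against Myod1 in each of the 18 libraries, both as log2(FPM per kb of exon + 1), coloured by group. Control libraries sit at the left with high Myf5, MUNC spliced libraries at the upper right, and MUNC genomic libraries lowest on the Myf5 axis (9.58 to 16.5 FPM per kb).

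Over the 18 libraries the correlation with Myf5, on log2(FPM + 1), was -0.21 for Myod1, 0.26 for Myog and 0.75 for Myf6, while Myod1 and Myog correlated at 0.86. These are descriptions over 18 points that share 6 groups, and they carry no p. Among 11035 genes with a group mean of at least 5 FPM, those most like Myf5 were B3galt1 (r = 0.97), Slc24a3 (0.96), Osr1 (0.96), Lphn2 (0.95) and Creld1 (0.95). B3galt1 averaged 12.5 FPM in control GM and 27.4 in control DM3 and had no read in any MUNC genomic library. Slc24a3, a sodium, potassium and calcium exchanger, averaged 37.2 and 139 FPM in control GM and DM3 and at most 0.00954 FPM in the MUNC genomic groups. Genes running opposite were Rnpep (r = -0.95), Lgr6 (-0.95) and Pxylp1 (-0.94). Lgr6, a receptor for R-spondins, averaged 119 FPM in MUNC genomic GM, against 4.30 FPM in control GM. Most like Myod1 were Synpo2 (0.96), Fhod3 (0.96) and Ptprd (0.95), and most like Myog were Ryr1 (0.97), the calcium release channel of the sarcoplasmic reticulum, Lix1 (0.96) and Dnajb5 (0.96).

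Lists of genes around the family are described by their counts and medians beside all 13869 tested genes. Of all genes, 29.6% rose and 28.6% fell on differentiation of control, 17.2% and 18.4% in MUNC spliced and 26.3% and 25.1% in MUNC genomic cells. Against control in GM, 18.2% rose and 17.3% fell in MUNC spliced, and 12.2% and 14.5% in MUNC genomic cells. In DM3 it was 22.3% and 21.0% in MUNC spliced, and 19.3% and 20.9% in MUNC genomic cells.

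Genes that act above the family include Pax3 and Pax7, Six4 and the Eya factors, Tbx1 and the Gli factors of hedgehog signalling, and 10 of the 16 listed were tested. Pax3 averaged at most 0.526 FPM in a group and Pax7 at most 0.0727, and both were below the filter. On differentiation of control cells 5 rose and 2 fell, with a median of 0.52 beside 0.02 over all genes. Eya1, a transcriptional co-activator, rose by 1.46 (34.9 to 98.0 FPM, limma adjusted p 1.32e-06), while Gli1 fell by 1.77 (to 2.61 FPM in DM3, limma adjusted p 3.32e-05). In MUNC genomic cells against control, 2 rose and 1 fell in GM (median 0.02, all genes -0.03) and 2 rose and 3 fell in DM3 (median -0.11, all genes -0.01). In each medium 1 of the 2 that rose had passed the filter only through the MUNC lines, so its call adds no support beyond the levels. Eya1 fell in MUNC genomic DM3 against control by 1.61 (98.0 to 31.1 FPM, limma adjusted p 3.26e-07). Tbx1 fell in MUNC genomic cells by 1.13 in GM and by 1.32 in DM3 (limma adjusted p 0.000258 and 2.98e-05). In MUNC spliced cells against control, 1 rose and 2 fell in GM (median 0.05, all genes -0.02), and 3 rose and 4 fell in DM3 (median -0.53, all genes 0.01). Eya1 and Tbx1 were called lower in this line too. Eya1 fell by 0.94 in DM3 (limma adjusted p 0.000128). Tbx1 fell by 1.03 in GM and by 0.54 in DM3 (limma adjusted p 0.000482 and 0.0279). Eya4 rose in GM by 1.95 in MUNC spliced and by 1.57 in MUNC genomic cells (limma adjusted p 7.55e-08 and 9.08e-07). Without MUNC spliced DM3 replicate 1, 2 upstream genes rose and 3 fell in MUNC spliced DM3 against control (median -0.55), beside 38.4% of all genes called.

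Partners of the family include the E proteins, the Mef2 and Meis factors and co-activators, and 11 of 12 were tested. Against control, 3 rose and 0 fell in each line in GM, with medians of 0.11 in MUNC spliced and 0.26 in MUNC genomic cells. In DM3, 2 rose and 1 fell in MUNC spliced cells (median 0.01) and 2 rose and 0 fell in MUNC genomic cells (median 0.22). Mef2a, of the MEF2 factors, rose in MUNC genomic cells by 0.70 in GM (limma adjusted p 0.0107) and by 1.47 in DM3 (116 to 324 FPM, limma adjusted p 9.56e-06). It was called higher in MUNC spliced cells too, by 0.65 in GM and by 0.93 in DM3 (limma adjusted p 0.0135 and 0.000819).

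Inhibitors of the family are the Id proteins, which take up its E protein partners, Twist factors, the Hes and Hey repressors and class II histone deacetylases, and 14 of 19 were tested. Against control in GM, 5 rose and 1 fell in MUNC spliced cells (median 0.34) and 3 rose and 1 fell in MUNC genomic cells (median 0.09). In DM3, 3 rose and 3 fell in each line, with medians of 0.26 in MUNC spliced and -0.21 in MUNC genomic cells. Without MUNC spliced DM3 replicate 1, 3 rose and 2 fell in MUNC spliced cells, with a median of 0.12, beside 38.4% of all genes called. Id2 rose by 3.98 (1.04 to 31.8 FPM, limma adjusted p 1.08e-05) and Id3 by 3.27 (14.5 to 143 FPM, limma adjusted p 1.55e-05) in MUNC spliced DM3. In MUNC genomic DM3, Id3 was called higher than in control too (1.71, limma adjusted p 0.00451), and Id2 was not called (1.20, limma adjusted p 0.0691). Heyl, a Notch effector, averaged 10.8 FPM in MUNC genomic DM3 against 0.0189 in control. Heyl is 1 of 2 tested inhibitors that passed the filter only through the MUNC lines, so no test is given. Both stand in the medians above, and Heyl is among the genes that rose against control in each line and medium. That call adds no support beyond the levels. On differentiation of control cells Id2 fell by 2.66 (12.9 to 1.04 FPM, limma adjusted p 0.000303).

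Muscle targets of the family, among them contractile proteins and acetylcholine receptor subunits, gave 26 tested of 32 listed. On differentiation 12 rose and 2 fell in control cells (median 0.42), 19 rose and 1 fell in MUNC spliced cells (median 1.90), and 22 rose and 2 fell in MUNC genomic cells (median 1.48). In control cells, with few reads of Myod1 and Myog, Chrng rose by 5.24 (0.264 to 50.6 FPM, limma adjusted p 1.73e-07) and Tnnt1 by 4.51 (0.548 to 34.8 FPM, limma adjusted p 1.84e-06). Against control in GM, 10 rose and 2 fell in MUNC spliced cells (median 0.65), and 3 rose and 4 fell in MUNC genomic cells (median -0.0028, which quantile normalization turns to 0.03). Des, the muscle intermediate filament, rose in MUNC genomic GM by 4.25 (24.2 to 476 FPM, limma adjusted p 7.07e-08), and Chrnd fell there by 1.71 (limma adjusted p 0.0122). In DM3, 16 rose and 2 fell in MUNC spliced cells (median 1.56) and 13 rose and 3 fell in MUNC genomic cells (median 0.98). Of the 26 tested targets 7 passed the filter only through the MUNC lines. They make up 3 and 1 of the targets that rose against control in GM, in MUNC spliced and MUNC genomic cells, and 6 and 5 of those in DM3, and these calls add no support beyond the levels. The same 7 stand in the counts and medians on differentiation. Where such a gene reached the filter only in DM3 libraries, its rise on differentiation of a MUNC line adds no support either. Myh3, embryonic myosin, is 1 of the 7, and averaged 0.444 FPM in control DM3, 79.8 in MUNC spliced DM3 and 9.64 in MUNC genomic DM3. Without MUNC spliced DM3 replicate 1, the MUNC spliced count against control in DM3 was 16 rising and 5 falling (median 1.22), beside 38.4% of all genes called. On differentiation it was then 17 rising and 2 falling (median 1.37), beside 37.6% of all genes.

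**Figure D5:**
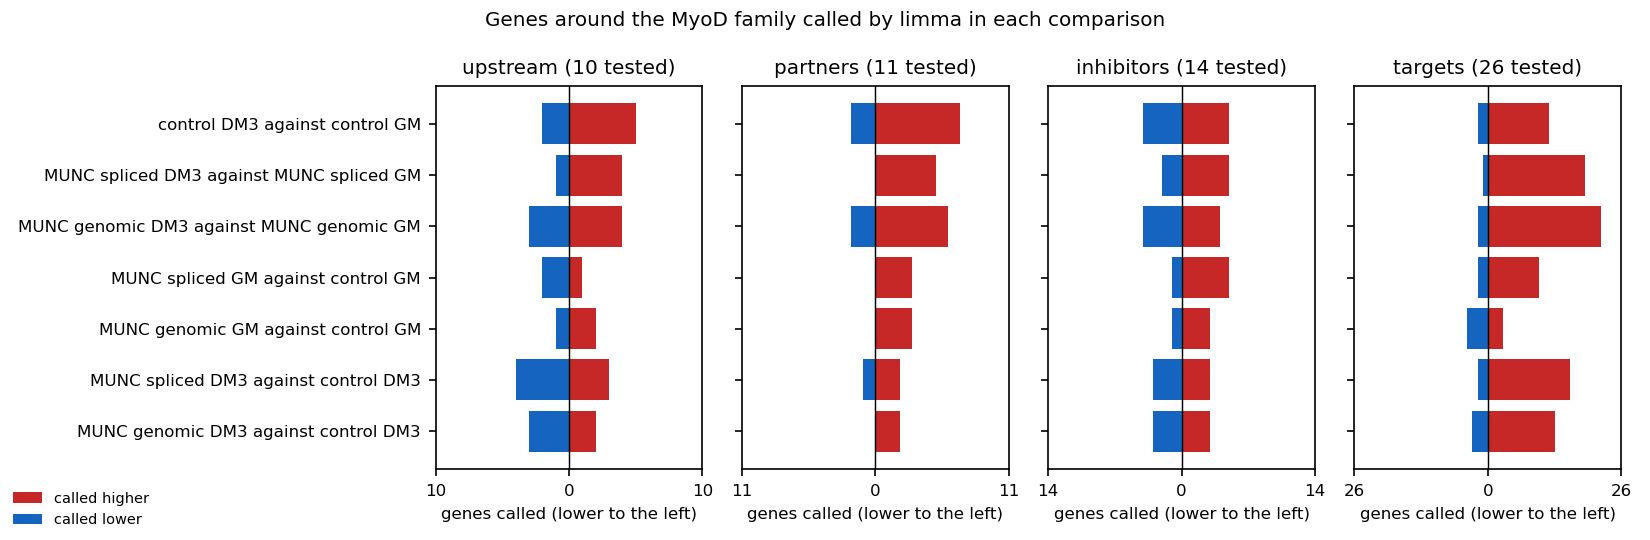
Number of tested genes called higher (red, right) and lower (blue, left) in 7 comparisons, for 4 lists (upstream factors, partners, inhibitors, targets). Calls of targets lean higher on differentiation (12 of 26 in control, 19 in MUNC spliced and 22 in MUNC genomic cells), and upstream factors are split. Of the 26 targets, 7 passed the filter only through the MUNC lines, as did 2 of 14 inhibitors and 1 of 10 upstream factors.

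The medians of all tested genes ran from -0.03 to 0.03 over the comparisons, and no called gene of these lists changed direction when FPM was rescaled to equal sums or quantile normalized.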

How the data were processed

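RNA-seq values came from 1 deposited table of signal in FPM for 18 libraries. Per the submitters' processing notes STAR, HTSeq and DESeq2 were used on mm10, with no versions, and the annotation is not given in the sources used here. A label calls the values FPKM, but 100% of them were whole multiples of 1 step per library (to within 0.0354 of a read, tolerance 0.1), so they are not divided by length. The authors' deposited comparison tables, with DESeq2 column names per the file headers, give log2 fold changes, p-values and scores, the last not used. Groups follow the titles, which another label (myoblast or myotube) contradicts in 9 samples.

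The fit, by limma 3.58.1 under R 4.3.3, took log2(FPM + 1) values, a mean-variance trend, a mean per group and 12 residual degrees of freedom. The scripts were tested on simulated data. Balances used GENCODE M21 exon lengths (34490 of the 35275 identifiers matched, 97.8%). Alternatives used other pseudocounts (0.1, 0.25), other filters or scalings, the compared groups alone, a replicate block, each library left out, and edgeR 4.0.16 or DESeq2 1.42.0 on the recovered reads. The count fits with no filter, and list counts and family sums without MUNC spliced DM3 replicate 1, were added after seeing the data. Over the 11 comparisons edgeR called 777 to 8034 genes and limma 1222 to 8078.

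Members and lists were chosen with earlier results of these data known. Named genes are the 4 members, the genes most and least like them, their neighbours, and at most 3 called genes per list with the largest differences. Some listed genes are counted but not reported here by name. The p-values measure the spread between libraries, called biological replicates in the series' design. Separately made lines of the same form of MUNC were not compared, so a form of MUNC and the line that carries it cannot be told apart.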

Additional observations from a re-analysis of the deposited data

Results flagged for a closer look

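Interactions of line with medium, tests of whether a line's DM3 minus GM difference equals that of control, were called by limma in 3 cases. They were Myog in MUNC spliced cells (2.64, adjusted p 0.0135), Myod1 in MUNC genomic cells (2.04, adjusted p 0.0358) and Myog in MUNC genomic cells (2.85, adjusted p 0.00955). The 3 DM3 libraries lay above the 3 GM libraries of the same line for each of these. None was called on the recovered reads by edgeR, which gave 0.05, 0.50 and 3.23 (adjusted p 0.993, 0.932 and 0.493), or by DESeq2, which gave -0.07, 0.43 and 3.23 (adjusted p 0.978, 0.908 and 0.106). By limma itself, the first was not called with a pseudocount of 0.1 (1.38, adjusted p 0.239) or 0.25 (2.06, adjusted p 0.0592). The second was not called with a pseudocount of 0.1 (1.91, adjusted p 0.158) or 0.25 (2.09, adjusted p 0.0676), with no filter on low values (2.04, adjusted p 0.0891), or in 10 of the 18 fits that left out 1 library, which were those without any 1 of the 6 control libraries or without replicate 1 or 2 of MUNC genomic GM or DM3. Control cells held 0 to 22 reads of Myod1 or Myog per library, and the cause of the difference between the tests was not tested. Because both genes passed the filter only through the MUNC lines, these interaction calls, which set a line against control, add no support beyond the levels. The interactions of Myf5 were not called by limma, edgeR or DESeq2.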

How the results depend on the processing

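For Myf5, 132 of 132 values under the settings that kept all libraries had the direction and the side of the threshold given above. Leaving out 1 library gave 0.47 to 0.62 for control DM3 against GM, -0.034 to 0.34 for MUNC genomic DM3 against GM and -0.058 to 0.13 for MUNC spliced against control DM3. In the second the direction turned without MUNC genomic DM3 replicate 1 (-0.034) or 2 (-0.020), and in the third without control DM3 replicate 1 (-0.0065) or MUNC spliced DM3 replicate 1 (-0.058). Myod1 in MUNC spliced against MUNC genomic DM3 ran from -0.15 to 0.69. The Myod1 interaction in MUNC spliced cells turned to -0.52 by edgeR and -0.60 by DESeq2 (-0.54 and -0.60 with no filter). The Myog interaction in MUNC spliced cells turned to -0.071 by DESeq2 (-0.065 with no filter). The cause was not tested. Beside edgeR and DESeq2, limma called Myog in control DM3 against GM with a pseudocount of 0.1 (1.77) and with only the compared groups. A pseudocount of 1 FPM moved the Myf5 share to 94.0% in control GM, 76.4% in MUNC genomic GM and 94.9% in control DM3, and without division by length the last was 99.1%. With a replicate block, Myf5 in control DM3 against GM was 0.52 (limma adjusted p 0.00668) and no call of a member changed, while the genes called over the 11 comparisons went from 1222 to 8078 to 2265 to 9059. Deviations of same-numbered libraries correlated at -0.06 to 0.73 (median 0.29), and those of differently numbered libraries at -0.63 to 0.32 (median -0.12). Of 18 libraries 17 were most like their own number, so the number is taken as shared only. The main fit has no term for it, so its spread between libraries includes any difference that goes with the number. Depth limits what can be said of Myod1, Myog and Myf6 in control cells, with 0 to 30 reads per library.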

Other observations

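Genes beside the family differed in part with it. Ptprq, a receptor phosphatase gene 22.3 kb from Myf6 and the nearest tested gene on that side, rose on differentiation of control cells, from 4.11 to 28.1 FPM (log2 difference 2.43, limma adjusted p 1.24e-05). Against control in DM3 it fell by 1.28 in MUNC spliced (limma adjusted p 0.00481) and by 1.60 in MUNC genomic cells (limma adjusted p 0.00092). Acss3, 359 kb away on the other side, averaged 4.13 FPM in control DM3, 0.0797 in MUNC spliced DM3 and 0.898 in MUNC genomic DM3, both lower than control (-2.16 and -1.35, limma adjusted p 1.87e-05 and 0.00137). Against the same control libraries Myf5 differed by 0.05 and -1.82.

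Beside Myod1, Otog (65.0 kb) averaged 3.88 FPM in MUNC spliced DM3 and 0.288 in control DM3, and Sergef (64.1 kb) was not called in either line in DM3. Beside Myog, Mybph (88.8 kb), a myosin-binding protein gene, averaged 0.0316 FPM in control DM3, 25.4 in MUNC spliced DM3 and 3.35 in MUNC genomic DM3. Ppfia4 (4.24 kb) averaged 0.0560, 3.89 and 1.62 FPM in these groups. Otog, Mybph and Ppfia4 passed the filter only through the MUNC lines, so no test against control is given for them.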
